A study of Homo sapiens with 6 samples.

Results

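The mRNAs of the nuclear-encoded subunits of the mitochondrial respiratory chain were measured in K562 cells with and without iron chelation. Members were all protein-coding genes of GENCODE release 44 whose symbols begin with NDUFA, NDUFB, NDUFC, NDUFS or NDUFV and a digit, UQCR or ATP5, together with SDHA to SDHD, CYC1, CYCS and the COX4 to COX8 genes, with readthrough genes left out. This rule on gene symbols found 89 genes among 19991 protein-coding genes: 38 of complex I, 4 of complex II, 10 of complex III, cytochrome c itself (CYCS), 17 of complex IV and 19 of complex V. K562 is an established human erythroid leukemia line that carries the BCR-ABL1 fusion. The cells received 10 µM of 21H7, a chelator that enters cells and binds iron (the Chelator group), or an equal volume of its solvent DMSO (the DMSO group), overnight in RPMI medium with serum. Each group had 3 libraries of polyadenylated RNA, numbered as replicates without a statement that they came from separate cultures, so that p-values measure the spread between these libraries, which may be technical. The labels give no other difference between the groups.

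The respiratory chain passes electrons from NADH (complex I) and succinate (complex II) through ubiquinone, complex III and cytochrome c to complex IV, which reduces oxygen, while complex V uses the resulting proton gradient to make ATP. The electrons travel through iron-sulfur clusters in complexes I, II and III and through hemes in complexes II, III and IV and cytochrome c, so that a small set of subunits holds the iron and a larger set of small supernumerary subunits surrounds the catalytic cores. Complexes I, III, IV and V also contain subunits encoded by mitochondrial DNA, and the hemes and coppers of complex IV sit on those. Of the nuclear members, 11 hold iron: the iron-sulfur proteins NDUFS1, NDUFS7, NDUFS8, NDUFV1, NDUFV2, SDHB and UQCRFS1, and the heme proteins SDHC, SDHD, CYC1 and CYCS.

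Levels are given in TPM (transcript abundance per library, scaled to a fixed total), which are scaled for transcript length, and changes as log2 fold changes of Chelator over DMSO with standard errors and Benjamini-Hochberg adjusted p-values over all genes from DESeq2. Estimated counts totalled 78.6 to 90.4 M in the DMSO libraries and 85.4 to 101 M in the Chelator libraries, and the members took 0.928 to 1.02% and 1.12 to 1.24% of them. TFRC, the transferrin receptor whose mRNA is stabilised in iron-poor cells, measured 227, 251 and 290.1 TPM with DMSO and 1814, 1976 and 2035 TPM with Chelator (log2 fold change 2.89 ± 0.10 (SE), adjusted p = 3.2e-172, DESeq2). All 11 genes used as K562 and erythroid markers were at 1 TPM or more in every library. Of 4 markers of other blood cells, MS4A1 was listed at 0, CD14 and CD3E stayed under 1 TPM, and CD3D measured 16.2, 10.0 and 12 TPM with DMSO and 40.7, 39.9 and 38.9 TPM with Chelator, with summed levels of the 4 genes between 10.4 and 41.2 TPM, and their part in the results below was not tested. The mean fragment length, estimated from the files' effective transcript lengths, was 264 to 274 bases in the DMSO libraries and 218 to 231 bases in the Chelator libraries, so that the groups did not overlap. The part of this difference in the changes of these mostly short mRNAs was not tested.

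With chelation, more subunit mRNAs rose than fell, and the subunits that hold iron had a lower median change than those that do not. Of the 89 members, 86 had enough counts to be tested and 84 received an adjusted p. Among these, 42 rose (19.5% of all genes tested rose) and 10 fell (18.3% of all genes fell) at an adjusted p under 0.05, and 32 did not pass. Beyond 2-fold, NDUFA4L2, COX7B, ATP5F1E and COX6C rose (8.18% of all genes did) and UQCRHL fell (2.6% of all genes did), although the sign of UQCRHL depended on the correction for transcript length (with complex III below). The number that fell was 15 without DMSO replicate 2 (18.8% of all genes) and 6 without DMSO replicate 3 (16.7%). The median log2 fold change was 0.21 over the 84 members and 0.016 over all 24542 genes with an adjusted p. That upward shift depended on the scaling. With changes centred on the mean of expressed genes, 20 members rose (11.9% of all genes) and 21 fell (26.8% of all genes), with medians of -0.0002 for members and -0.20 for all genes. With trends in GC content and length removed, 31 rose (14% of all genes) and 24 fell (25.7% of all genes), with medians of 0.020 and -0.13. Directions below are those of the DESeq2 fit with its own scaling. Groups that do not overlap are mentioned for many members below. By normalized counts, 24.8% of all 26074 genes tested had every Chelator library above every DMSO library, and 22.5% had every one below. The 761 well expressed genes (1000 normalized counts or more on average) with transcripts under 1000 bases had a median of 0.10, with 39.2% higher and 24.3% lower. The 8181 equally expressed genes of 1000 bases or more had a median of -0.10, with 23.4% higher and 39.5% lower, and over all well expressed genes 24.8% were higher and 38.2% lower.

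**Figure D1:**
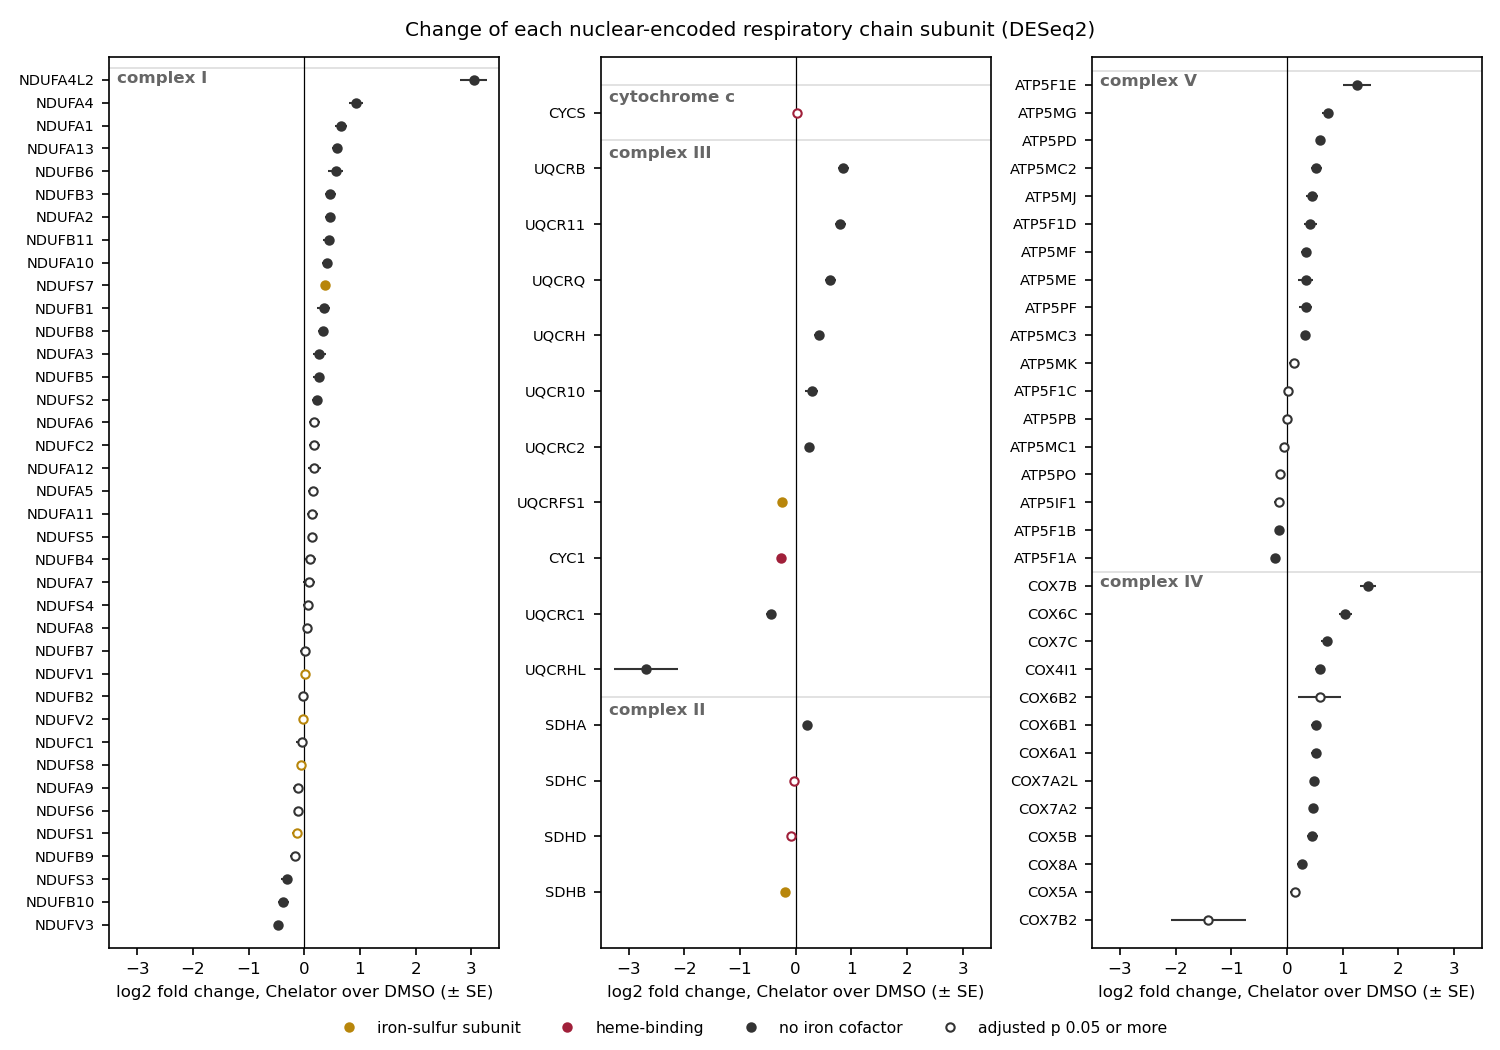
Log2 fold change of Chelator over DMSO (x axis, ± SE from DESeq2, 3 libraries per group) for the 84 members with an adjusted p, 1 point per gene, by complex. Filled points had an adjusted p under 0.05. The gold iron-sulfur and red heme points lie between -0.26 and 0.38, while 10 of the 13 complex IV points are filled and to the right of 0.

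Summed subunit mRNA was higher with Chelator in complexes I, III, IV and V, with the highest ratio in complex IV. Summed over its 17 genes, complex IV stood at 3704, 3549.7 and 3428 TPM with DMSO and 4887, 5543 and 5194 TPM with Chelator, a ratio of group means of 1.46. Complex III followed with 2819, 2847 and 2735 TPM with DMSO and 3385, 3749 and 3668 TPM with Chelator, a ratio of 1.29. Sums of complex V and complex I were 1.16 and 1.14 times their DMSO means, from 7339 ± 165 to 8505 ± 430.1 TPM and from 7142 ± 59.6 to 8130.3 ± 452 TPM (SD, n = 3). For each of these 4 complexes every Chelator library lay above every DMSO library. Complex II stood at 475, 509 and 459 TPM with DMSO and 449.6, 489 and 489.7 TPM with Chelator, and its groups overlapped. The balance between complexes can be read within a library, where scaling cancels. Complex IV mRNA was 0.514, 0.499 and 0.483 of complex I mRNA in the DMSO libraries and 0.640, 0.651 and 0.631 of it in the Chelator libraries, and relative to complex II the ratio went from 7.42 ± 0.414 to 10.9 ± 0.368 (SD, n = 3), in both cases without overlap. The ratio of complex V to complex I overlapped between groups, at 1.03 ± 0.0154 and 1.05 ± 0.0224. Medians of the member changes gave the order IV (0.51), V (0.33), III (0.27), I (0.15) and II (-0.054). The order was the same centred on the mean and with GC content and length trends removed, but the complex I median was then -0.065 and -0.0069. Over protein-coding transcripts alone complex I (0.21) came before V (0.18) and III (0.13). Without the length offset III (0.35) came before V (0.32). Leaving out single libraries also moved the complex V median, as given with the processing below. All these medians are descriptions and carry no test.

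**Figure D2:**
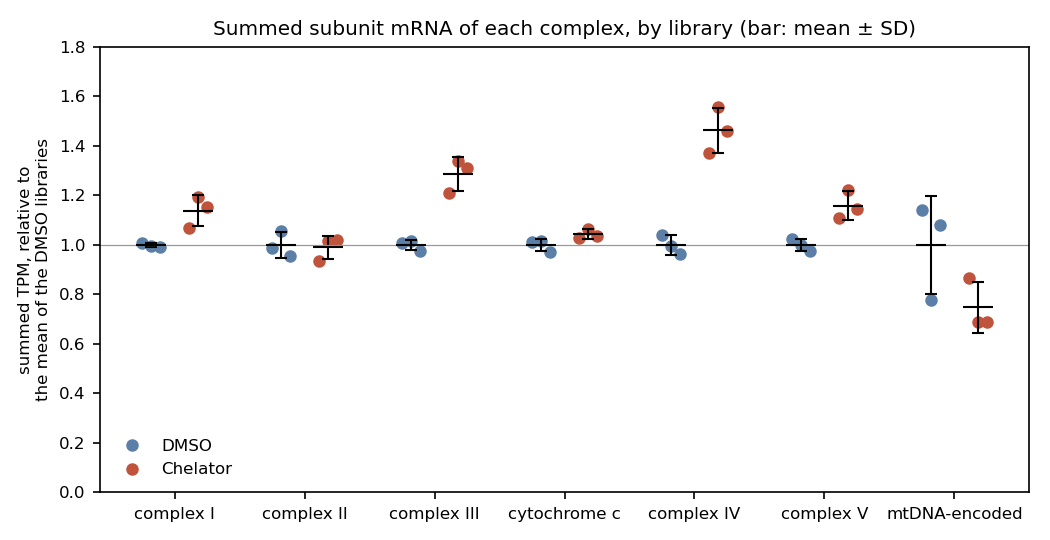
Summed TPM of the nuclear-encoded subunits of each complex, and of the 13 mitochondrially encoded subunits, in each library relative to the DMSO mean (points; bars, mean ± SD of 3 libraries). Complex IV rises to 1.46 on average, and the complex II groups overlap.

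Complex I, which oxidises NADH, had 15 members that rose (19.5% of all genes), 3 that fell (18.3% of all genes) and 20 that did not pass. Its members had a median length of 692 bases, and of well expressed genes under 1000 bases 39.2% rose and 24.3% fell. The largest change of any member was that of NDUFA4L2 (chr12:57234903-57240715, minus strand), an NDUFA4-like gene known to be induced in hypoxia by HIF-1, which rose from 0.488, 0.538 and 0.450 TPM with DMSO to 4.39, 3.93 and 4.07 TPM with Chelator (log2 fold change 3.04 ± 0.24 (SE), adjusted p = 5.6e-34, DESeq2). It remained the least abundant complex I member in both groups, on counts of 32 to 40 with DMSO and 312 to 385 with Chelator. Its common counterpart NDUFA4, first assigned to complex I and now regarded as a subunit of complex IV, measured 53.9, 44.2 and 52.3 TPM with DMSO and 85.6, 105 and 106 TPM with Chelator (log2 fold change 0.93 ± 0.12 (SE), adjusted p = 1.1e-12, DESeq2). Both genes were higher in every Chelator library than in any DMSO library. Counting the pair with complex IV left the medians of complex I and IV at 0.14 and 0.52. Other supernumerary subunits followed with smaller rises, among them NDUFA1 (0.67, adjusted p = 5e-09) and NDUFA13 (0.59, adjusted p = 6.8e-11), the latter also known as GRIM-19.

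The 7 nuclear-encoded core subunits of complex I, which bind NADH and the iron-sulfur clusters or dock ubiquinone, had a median log2 fold change of -0.021, against 0.18 for the 31 other members. NDUFS7, which carries the last cluster before ubiquinone, rose from 185, 189 and 185 TPM with DMSO to 222, 257 and 268 TPM with Chelator (log2 fold change 0.38 ± 0.088 (SE), adjusted p = 7.6e-05, DESeq2), but it turned to -0.16, adjusted p = 0.0499 once trends of GC content and length were taken out and did not pass centred on the mean (0.17, adjusted p = 0.24). NDUFV1 and NDUFV2, the NADH-binding flavoprotein and its iron-sulfur partner, did not pass the test. NDUFV1 measured 231, 252 and 216 TPM with DMSO and 222, 244 and 251 TPM with Chelator (log2 fold change 0.0068 ± 0.070 (SE), adjusted p = 0.96, DESeq2), and it too turned in that fit, to -0.40, adjusted p = 1.9e-10. NDUFV2 measured 256, 274 and 259 TPM with DMSO and 254, 272 and 269 TPM with Chelator (log2 fold change -0.021 ± 0.070 (SE), adjusted p = 0.86, DESeq2). NDUFS8, another cluster protein of the arm that reaches the membrane, was at 155, 158 and 148 TPM with DMSO and 147, 159 and 149 TPM with Chelator (log2 fold change -0.057 ± 0.078 (SE), adjusted p = 0.63, DESeq2). With GC content and length trends taken out NDUFS8 was lower (-0.53, adjusted p = 5.4e-12), and when centred on the mean NDUFS8 (-0.27, adjusted p = 0.023), NDUFV2 (-0.23, adjusted p = 0.042) and NDUFS1 (-0.34, adjusted p = 0.0065) were lower. The groups of NDUFV1, NDUFV2 and NDUFS8 overlapped. For NDUFS1, the largest core subunit and the holder of several clusters, values were 65.7, 76.9 and 75.6 TPM with DMSO and 72.3, 67.7 and 63.1 TPM with Chelator (log2 fold change -0.13 ± 0.088 (SE), adjusted p = 0.26, DESeq2). Without the average length offset its change was -0.38, adjusted p = 8.8e-06, and with Chelator replicate 1 left out it was -0.20, adjusted p = 0.0459 (DESeq2). The largest falls in complex I were those of NDUFV3, a small flavoprotein subunit, at 52.6, 65.6 and 56.5 TPM with DMSO and 42.2, 41 and 44.3 TPM with Chelator (log2 fold change -0.48 ± 0.073 (SE), adjusted p = 7.4e-10, DESeq2), and of NDUFB10. NDUFB10, a membrane arm subunit, was at 219, 209 and 213 TPM with DMSO and 161, 172 and 174 TPM with Chelator (log2 fold change -0.37 ± 0.091 (SE), adjusted p = 0.00022, DESeq2). The fall of NDUFB10 no longer passed without the length offset (-0.15, adjusted p = 0.19). It was larger centred on the mean (-0.59, adjusted p = 1.9e-06) and with GC content and length trends taken out (-0.75, adjusted p = 1.4e-17, DESeq2). NDUFS5 was the most abundant complex I member with DMSO, at 683, 669 and 659 TPM with DMSO and 717, 804 and 754 TPM with Chelator (log2 fold change 0.14 ± 0.083 (SE), adjusted p = 0.18, DESeq2), and it passed, higher, without the length offset (0.36, adjusted p = 0.00015) and over coding transcripts alone (0.20, adjusted p = 0.016).

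Complex II, succinate dehydrogenase, is encoded entirely in the nucleus and is also the Krebs cycle enzyme that oxidises succinate. Of its 4 members, 1 rose (19.5% of all genes), 1 fell (18.3% of all genes) and 2 did not pass. SDHA, the flavoprotein that binds succinate, rose from 100.4, 108 and 97.9 TPM with DMSO to 115, 120.2 and 124 TPM with Chelator (log2 fold change 0.20 ± 0.069 (SE), adjusted p = 0.012, DESeq2), a call lost without Chelator replicate 3 (adjusted p = 0.064) and absent once GC content and length trends were taken out (0.0035, adjusted p = 0.98). SDHA shares 31.9% of its 31-base sequences with other annotated genes, so its counts are uncertain. SDHB, which holds the iron-sulfur clusters, fell from 171, 185 and 174 TPM with DMSO to 146, 166 and 163 TPM with Chelator (log2 fold change -0.19 ± 0.074 (SE), adjusted p = 0.03, DESeq2). That small difference did not pass with DMSO replicate 1, DMSO replicate 3 or Chelator replicate 1 left out (adjusted p = 0.1, 0.13 and 0.093, DESeq2), nor in edgeR (adjusted p = 0.093), without the length offset (-0.13, adjusted p = 0.16) or over coding transcripts alone (-0.14, adjusted p = 0.077). The fall of SDHB did pass when centred on the mean and with GC content and length trends taken out. SDHA was higher and SDHB lower in every Chelator library than in any DMSO library, and the groups of SDHC and SDHD overlapped. The membrane anchors SDHC and SDHD, which bind the heme, did not pass. SDHC, the least abundant member, measured 80.1, 85.4 and 72.8 TPM with DMSO and 75.5, 79.3 and 84.7 TPM with Chelator (log2 fold change -0.022 ± 0.081 (SE), adjusted p = 0.87, DESeq2). SDHD measured 124, 131 and 114 TPM with DMSO and 113, 123 and 118 TPM with Chelator (log2 fold change -0.086 ± 0.073 (SE), adjusted p = 0.39, DESeq2). SDHC was lower with GC content and length trends taken out (-0.19, adjusted p = 0.039), and SDHD when centred on the mean (-0.30, adjusted p = 0.006).

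The promoters of SDHB and SDHD each contain the core of the site bound by NRF1 (CATGCGC), a factor known to activate respiratory chain genes, and of the site bound by ETS factors such as GABP (CCGGAAG). They are shown because both motifs were in a larger share of the members' promoters than of all promoters (below). They come from RefSeq's promoter sequences on GRCh38.p14, on the strand of the gene, with the motif, in either orientation, in capitals. For each gene the NRF1 core stands first and the ETS core second. SDHD holds the NRF1 core in both orientations, overlapping, and the first is in capitals.
SDHB (chr1:17054214-17054243): aagccaaatgggCATGCGCcgctactgcgc
SDHB (chr1:17054143-17054172): ccacccgggaaaCCGGAAGccgcctcccac
SDHD (chr11:112086751-112086780): acagctgtgtttGCGCATGcgcgacgggtg
SDHD (chr11:112086784-112086813): accgcctctcgaCTTCCGGttcacccagca

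Of the 89 members, 70 had a promoter sequence, which ran from 250 bases before the start of the gene to 50 after it. The NRF1 core was present on either strand in 15 of 70 (21.4%, against 5.87% of 15843 promoters of protein-coding genes), the ETS core in 20 (28.6% against 14.2%) and the YY1 core AAGATGG in 16 (22.9% against 6.40%). The HIF core ACGTG was in 18 (25.7% against 23.7%) and the CCAAT box in 26 (37.1% against 36.4%). None of these motifs contains another. NRF1, GABPA and YY1, the genes of the factors themselves, are given with the biogenesis regulators below.

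Complex III, which passes electrons from ubiquinol to cytochrome c, had members moving in both directions, with 6 higher (19.5% of all genes) and 4 lower (18.3% of all genes). UQCRB, a small ubiquinone-binding subunit, measured 177, 158 and 162 TPM with DMSO and 277, 322 and 324 TPM with Chelator (log2 fold change 0.86 ± 0.10 (SE), adjusted p = 1.4e-15, DESeq2). UQCR11, a very small subunit, measured 78.7, 77.7 and 75.7 TPM with DMSO and 115, 159 and 143 TPM with Chelator (log2 fold change 0.80 ± 0.11 (SE), adjusted p = 5.2e-13, DESeq2), but its change was 0.35, adjusted p = 9.1e-05 without the length offset and 0.22, adjusted p = 0.0062 over its coding transcripts alone. Both genes were higher in every Chelator library. UQCRC2, a core protein, was at 0.25, adjusted p = 0.0031 (DESeq2), a call lost without the length offset (0.0056, adjusted p = 0.96), over coding transcripts alone (0.049, adjusted p = 0.35), with GC content and length trends taken out (0.11, adjusted p = 0.27) and when centred on the mean (0.034, adjusted p = 0.84). UQCRC1, the other core protein, related to mitochondrial processing peptidases, fell from 211, 244 and 223 TPM with DMSO to 178, 155 and 175 TPM with Chelator (log2 fold change -0.44 ± 0.085 (SE), adjusted p = 1.1e-06, DESeq2). CYC1, the heme protein cytochrome c1, fell from 305, 336 and 318 TPM with DMSO to 268, 276 and 275 TPM with Chelator (log2 fold change -0.26 ± 0.067 (SE), adjusted p = 0.00045, DESeq2). UQCRFS1, the Rieske iron-sulfur protein, fell from 39.8, 41.8 and 37.9 TPM with DMSO to 32, 36 and 35.1 TPM with Chelator (log2 fold change -0.25 ± 0.076 (SE), adjusted p = 0.0043, DESeq2), while limma on log2(TPM + 0.5) gave it an adjusted p of 0.057. All 3 had every Chelator library below every DMSO library. Both iron-holding subunits of complex III thus fell, and of the 8 others 6 rose and 2 fell (UQCRC1 and UQCRHL). UQCR10, a small subunit near cytochrome c1, was among the 6 (0.29, adjusted p = 0.042), but its groups overlapped, and it did not pass when centred on the mean (0.068, adjusted p = 0.74) or with GC content and length trends taken out (0.082, adjusted p = 0.62). The rises of UQCRH, the hinge protein and most abundant member at 1366, 1326 and 1265 TPM with DMSO and 1680.3, 1905 and 1849 TPM with Chelator (log2 fold change 0.42 ± 0.083 (SE), adjusted p = 2.7e-06, DESeq2), and of UQCRQ (0.62, adjusted p = 2.3e-10) lay within the range of the complex IV rises, and that of UQCRH did not pass when centred on the mean (0.21, adjusted p = 0.11). UQCRHL, an intronless near-copy of UQCRH, is uncertain: its estimated counts were 12.2, 17.2 and 6.07 with DMSO and 34.3, 27.3 and 29.4 with Chelator, which gave log2 fold change -2.68 ± 0.57 (SE), adjusted p = 1.8e-05 with the length offset and 1.16, adjusted p = 0.11 without it (DESeq2). UQCRH shares 25.8% of its 31-base sequences with other genes, chiefly UQCRHL. CYCS, the heme protein that carries electrons on to complex IV, measured 372, 375 and 358 TPM with DMSO and 379, 392 and 382 TPM with Chelator (log2 fold change 0.028 ± 0.075 (SE), adjusted p = 0.82, DESeq2) and did not pass, although its Chelator libraries lay just above its DMSO libraries in TPM.

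Complex IV, cytochrome c oxidase, is built around 3 mitochondrially encoded subunits, and its nuclear members are small proteins that surround them. Among the 13 with an adjusted p, 10 rose (19.5% of all genes), 0 fell (18.3% of all genes) and 3 did not pass in DESeq2. At an unadjusted p under 0.05 in DESeq2, 1 was lower (COX7B2), and edgeR called 0 lower. COX7B (chrX:77899440-77907376, plus strand) measured 59.8, 49.4 and 61.8 TPM with DMSO and 131, 184 and 169 TPM with Chelator (log2 fold change 1.45 ± 0.14 (SE), adjusted p = 6e-24, DESeq2). Without the length offset the change was 0.45, adjusted p = 0.00037, and its counts moved to shorter transcripts, as described with transcript usage below. COX6C measured 174, 144 and 140.0 TPM with DMSO and 304, 353 and 314 TPM with Chelator (log2 fold change 1.04 ± 0.12 (SE), adjusted p = 1.2e-17, DESeq2), and there the fit without the offset gave 1.22, adjusted p = 9.1e-27. Both genes were higher in every Chelator library than in any DMSO library. The common forms of the paired subunits also rose. COX4I1, whose product binds adenine nucleotides, measured 466, 466 and 455 TPM with DMSO and 663, 751 and 722 TPM with Chelator (log2 fold change 0.59 ± 0.080 (SE), adjusted p = 2.7e-12, DESeq2). COX6A1 measured 413, 387 and 392 TPM with DMSO and 545, 619 and 582 TPM with Chelator (log2 fold change 0.51 ± 0.092 (SE), adjusted p = 1.7e-07, DESeq2). COX6B1, which joins the monomers of the enzyme, measured 392, 379 and 355 TPM with DMSO and 499, 590.5 and 565 TPM with Chelator (log2 fold change 0.52 ± 0.090 (SE), adjusted p = 6.5e-08, DESeq2). In these 3 genes too every Chelator library lay above every DMSO library. COX7A2 measured 381, 378 and 359.8 TPM with DMSO and 493, 558 and 537 TPM with Chelator (log2 fold change 0.47 ± 0.084 (SE), adjusted p = 1.5e-07, DESeq2). COX8A, the most abundant complex IV member, measured 623, 595 and 572 TPM with DMSO and 724, 777 and 710.3 TPM with Chelator (log2 fold change 0.27 ± 0.087 (SE), adjusted p = 0.0065, DESeq2), which came to -0.013, adjusted p = 0.94 once trends of GC content and length were taken out. COX8A shares 31.5% of its 31-base sequences with another annotated gene, so its counts are uncertain. COX7C (0.71, adjusted p = 6.4e-13), COX7A2L (0.49, adjusted p = 8.6e-08), a factor that joins complexes III and IV, and COX5B (0.45, adjusted p = 1.9e-05) completed the 10. COX5A, with 0.13, adjusted p = 0.17, was the abundant member that did not pass, although its 3 Chelator libraries lay above its DMSO libraries, and it passed without the length offset (0.31, adjusted p = 0.00018) and over coding transcripts alone (0.19, adjusted p = 0.0077). COX5B did not pass with GC content and length trends taken out (0.21, adjusted p = 0.058) or centred on the mean (0.24, adjusted p = 0.092), nor did COX8A in the latter (0.056, adjusted p = 0.74).

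Of the 14 complex IV members with a promoter sequence, 5 held the ETS core, 8 a CCAAT box and 1 the HIF core. The 5 with the ETS core, COX4I1, COX5B, COX6A1, COX6B1 and COX8A, rose, as did 10 of the 13 complex IV members with an adjusted p. COX7B, with the largest rise, was not among the 5. Their ETS cores began between 37 bases before the annotated start and 2 after it. They are shown on the strand of the gene because complex IV had the largest median change. The position was not particular to these 5 genes, since ETS cores began in the same interval in NDUFA13, ATP5MG, ATP5MK, ATP5PF and NDUFB7, of which NDUFB7 did not pass (0.0075, adjusted p = 0.96). For COX5B, which has 2 such cores, both windows are given.
COX4I1 (chr16:85799685-85799714): cggccttgctctCTTCCGGtcgcgggacac
COX5B (chr2:97646013-97646042): agaagcccgcccCCGGAAGtccctcctgtc
COX5B (chr2:97646045-97646074): tgcagcttgttcCCGGAAGttttgctgcta
COX6A1 (chr12:120438085-120438114): tttccacttccgCTTCCGGcgctgcggcag
COX6B1 (chr19:35648299-35648328): cacctctctcagCTTCCGGctggtagtagt
COX8A (chr11:63974590-63974619): ccagctccagaaCTTCCGGccagcgcagcc

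The alternative forms of these paired subunits, known from lung, muscle, heart or testis, were at 0 or under 4 TPM in K562 cells. COX4I2, the form linked to low oxygen in lung, and COX6A2, the muscle form, had 0 counts in all 6 libraries, where 3 counts would be 0.0297 to 0.0382 CPM. COX8C had 0 counts with DMSO and 1, 1 and 2 with Chelator, COX7A1 had 0, 1 and 1 with DMSO and 3, 10 and 0 with Chelator, and ATP5MGL, the retrocopy of ATP5MG, had 4, 6 and 0 with DMSO and 0, 2 and 0 with Chelator. At this depth no difference was detectable for these genes. COX7B2 measured 1.08, 0.879 and 2.55 TPM with DMSO and 0.308, 0.531 and 0.937 TPM with Chelator (log2 fold change -1.41 ± 0.67 (SE), adjusted p = 0.087, DESeq2), and it passed without DMSO replicate 2 or Chelator replicate 3 (adjusted p = 0.043 and 0.0475) and when centred on the mean (-1.64, adjusted p = 0.036). COX6B2 was at 1.21, 1.31 and 1.28 TPM with DMSO and 0.940, 3.69 and 1.36 TPM with Chelator (log2 fold change 0.58 ± 0.39 (SE), adjusted p = 0.26, DESeq2), where Chelator replicate 2 was the highest library, and it shares 28.3% of its 31-base sequences with other genes.

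Complex V, the ATP synthase, holds no iron. Of its members, 10 rose (19.5% of all genes), 2 fell (18.3% of all genes) and 6 did not pass. ATP5F1E (chr20:59025475-59032345, minus strand), the epsilon subunit of the rotating stalk, measured 32.7, 26.3 and 29.4 TPM with DMSO and 52.6, 77.8 and 87 TPM with Chelator (log2 fold change 1.25 ± 0.25 (SE), adjusted p = 3.3e-06, DESeq2), with the Chelator libraries spread widely above the DMSO libraries. ATP5MG, a membrane subunit at the dimer interface, measured 153, 145 and 143 TPM with DMSO and 214, 274 and 264 TPM with Chelator (log2 fold change 0.73 ± 0.10 (SE), adjusted p = 8.9e-12, DESeq2). The delta subunit ATP5F1D was at 199.8, 168 and 174 TPM with DMSO and 218, 273 and 257 TPM with Chelator (log2 fold change 0.42 ± 0.12 (SE), adjusted p = 0.0011, DESeq2), a change that was 0.036, adjusted p = 0.72 over coding transcripts alone and -0.14, adjusted p = 0.24 with GC content and length trends removed. The most abundant member, ATP5MF, measured 1081, 1021 and 967 TPM with DMSO and 1259, 1443 and 1299 TPM with Chelator (log2 fold change 0.35 ± 0.090 (SE), adjusted p = 0.00056, DESeq2). In ATP5MG, ATP5F1D and ATP5MF every Chelator library lay above every DMSO library. The 2 members that fell form the catalytic head. ATP5F1A (alpha) measured 262, 299 and 285 TPM with DMSO and 246, 241 and 257 TPM with Chelator (log2 fold change -0.21 ± 0.072 (SE), adjusted p = 0.011, DESeq2). ATP5F1B (beta, which forms ATP) measured 866, 989 and 867 TPM with DMSO and 844, 812 and 837 TPM with Chelator (log2 fold change -0.15 ± 0.065 (SE), adjusted p = 0.0491, DESeq2). In both, every Chelator library lay below every DMSO library, but neither fall passed in edgeR (adjusted p = 0.056 and 0.18), without DMSO replicate 3 (adjusted p = 0.077 and 0.12) or without Chelator replicate 2 (adjusted p = 0.067 and 0.16, DESeq2). That of ATP5F1B also failed without DMSO replicate 1 or Chelator replicate 3 (adjusted p = 0.11 and 0.11). Both falls did pass when centred on the mean and with GC content and length trends taken out. ATP5IF1, the inhibitor that stops the enzyme from hydrolysing ATP and that takes part in heme synthesis, measured 722, 714 and 749.6 TPM with DMSO and 632, 724 and 664 TPM with Chelator (log2 fold change -0.15 ± 0.088 (SE), adjusted p = 0.18, DESeq2), and it passed, lower, without DMSO replicate 2 (-0.24, adjusted p = 0.00089). The 3 genes for the identical mature c subunit of the proton-conducting ring received different calls, with the differences between them not tested. ATP5MC2 rose (0.52, adjusted p = 3.7e-07), as did ATP5MC3 (0.33, adjusted p = 0.0005), whereas ATP5MC1 did not pass (-0.053, adjusted p = 0.67). ATP5MC3 lost its call with GC content and length trends taken out (0.17, adjusted p = 0.098) and centred on the mean (0.11, adjusted p = 0.44), where ATP5MF (0.13, adjusted p = 0.38) and ATP5F1D (0.20, adjusted p = 0.23) lost theirs too. ATP5IF1 and ATP5MC1 were lower with those trends taken out (-0.34, adjusted p = 0.00049 and -0.29, adjusted p = 0.00064) and when centred (-0.37, adjusted p = 0.0031 and -0.27, adjusted p = 0.028). Without the length offset ATP5F1B was at -0.13, adjusted p = 0.086.

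Of the 11 subunits that hold iron, 1 rose (NDUFS7), 3 fell (SDHB, CYC1 and UQCRFS1) and 7 did not pass (19.5% of all genes rose and 18.3% fell; of well expressed genes of 1000 bases or more, 23.4% and 39.5%), with a median log2 fold change of -0.057. Of the 73 members without iron that received an adjusted p, 41 rose, 7 fell and 25 did not pass, with a median of 0.27. Summed iron-holding mRNA measured 1984, 2103 and 1959 TPM with DMSO and 1930.0, 2072 and 2056 TPM with Chelator, with overlapping groups, while the sum of the other members went from 19676 ± 406 to 24285 ± 1331 TPM (SD, n = 3). Within each library the first sum was 0.0987, 0.107 and 0.102 of the second with DMSO and 0.0842, 0.0809 and 0.0845 with Chelator, without overlap. Iron-holding members also have longer mRNAs, with a median of 1199 bases against 670.3, and the part of length in this difference was not tested. With changes centred on the mean, and likewise with GC content and length trends removed, 0 of the 11 rose and 7 fell in DESeq2 (26.8% of all genes fell when centred and 25.7% with the trends removed), with medians of -0.27 and -0.19 against 0.056 and 0.11 for the members without iron. The median of the 11 with DESeq2's own scaling lay between those of well expressed genes under 1000 bases (0.10) and of 1000 bases or more (-0.10). It lay between them in the other 2 fits too. Well expressed genes of 1000 bases or more had medians of -0.31 centred and -0.24 with the trends removed. Those under 1000 bases had -0.11 and -0.16. Limma on log2(TPM + 0.5) called 1 of the 11 lower (12.6% of all genes).

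**Figure D3:**
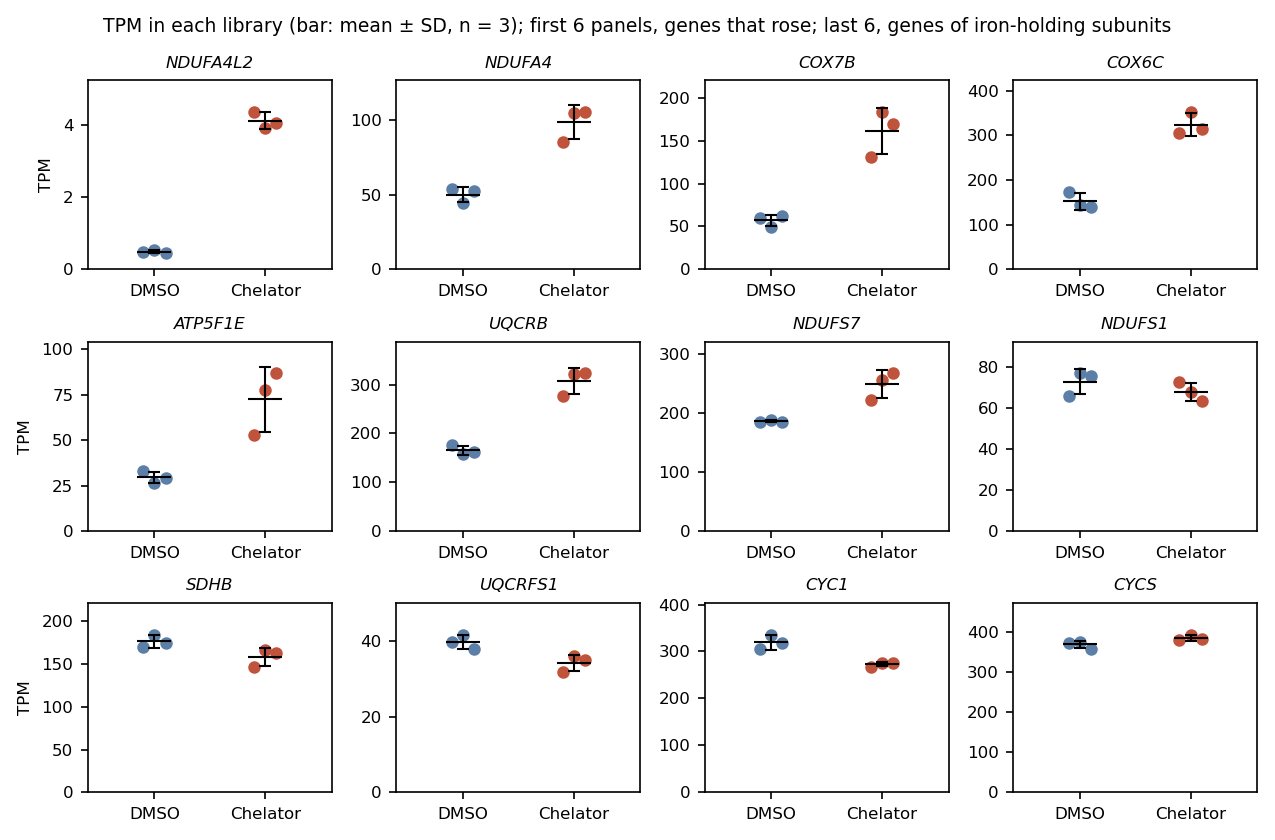
TPM (y axis, from 0) of 12 members in the 3 DMSO (blue) and 3 Chelator (red) libraries, with mean ± SD bars. The first 6 genes rose with all Chelator libraries above all DMSO libraries. Of the 6 iron-holding genes, NDUFS7 rose, SDHB, UQCRFS1 and CYC1 fell, and NDUFS1 and CYCS did not pass the test.

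The 3′ untranslated regions of these mRNAs are short. In the dominant coding transcript of 82 members expressed at 1 TPM or more, the median length was 144 bases, against 890.0 bases over 9727 genes at that level. The AU-rich core TATTTAT, to which decay factors of the ZFP36 family are known to bind, occurred in 5 of the 82 (6.10%) and in 28.8% of all those genes. The windows around it are shown on the strand of the gene, with the core in capitals, because CYCS is the iron-holding member among them and the others differ in response.
CYCS (chr7:25123668-25123694): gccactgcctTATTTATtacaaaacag
UQCRC2 (chr16:21983378-21983404): aatcaacaagTATTTATtatgtgctga
COX7A2 (chr6:75237819-75237845): tggggatcaaTATTTATtgacttgtag
ATP5PB (chr1:111462578-111462604): tatttgaaaaTATTTATcatgggtaat
NDUFS4 (chr5:53683263-53683289): agctgtgcagTATTTATagtccatgta

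Of these genes, COX7A2 rose (0.47, adjusted p = 1.5e-07), and so did UQCRC2, with the losses of its call given above. CYCS (0.028, adjusted p = 0.82) did not pass, nor did NDUFS4 (0.062, adjusted p = 0.62), which was at 0.19, adjusted p = 0.034 without the length offset. ATP5PB, a subunit of the peripheral stalk, was at 0.0033, adjusted p = 0.98 as a whole, but -0.19, adjusted p = 0.016 without the length offset and -0.98, adjusted p = 1.6e-14 over its coding transcripts alone (DESeq2). The 2628-base coding transcript of ATP5PB that holds the window had estimated counts of 8138, 7672 and 6492 with DMSO and 2940.0, 2752 and 1765 with Chelator. The gene's other abundant transcripts have no annotated coding sequence.

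The transcripts within a gene shifted as well as its sum. Shares below are of the gene's TPM unless stated, and they weight a short transcript more than shares of counts do, whereas the test used counts. Transcript usage was tested for 77 members with at least 2 transcripts above the count limit, and 15 were called (9.22% of all 11938 genes tested were called) at an adjusted p under 0.05 and a change of at least 5 percentage points. In all 15 the transcript that gained the most share was shorter than the one that lost the most, as it was in 71.4% of the 1101 genes called. In 5 of the 15 it was under 500 bases, against 12.7% of the genes called. UQCR11 changed most. Its 1299-base coding transcript made up 91.4, 93.6 and 87.8% of the gene's TPM with DMSO and 65.2, 51.5 and 52.2% with Chelator. A 409-base transcript without an annotated coding sequence made up 3.03, 0.946 and 5.96% of the gene's TPM with DMSO and 28.2, 43.5 and 39.9% with Chelator (edgeR diffSpliceDGE, adjusted p = 3.6e-07). Of the estimated counts of UQCR11, the long transcript held 97.2, 97.6 and 96.3% with DMSO and 89.2, 82.9 and 82.2% with Chelator. The short one held 0.487, 0.133 and 0.997% with DMSO and 6.99, 13.2 and 12.1% with Chelator of them, so that the long form remained the main source of counts. For COX7B the share of the 2444-base transcript went down, at 42.1, 41.2 and 35% of the gene's TPM with DMSO and 12.4, 9.16 and 8.14% with Chelator. The share of the 505-base transcript went up, at 37.8, 29.1 and 45.7% of the gene's TPM with DMSO and 56, 56.9 and 56.4% with Chelator (edgeR, adjusted p = 3e-05). Of the estimated counts of COX7B, the 2444-base form held 83.2, 82.2 and 78.5% with DMSO and 47.3, 37.9 and 34.1% with Chelator. The 505-base form held 9.49, 7.14 and 13.3% with DMSO and 27.7, 31.9 and 32.8% with Chelator of them. All 4 COX7B transcripts tested are annotated as coding. A 782-base transcript of NDUFA5 held 23.6, 21 and 30.0% of the gene's TPM with DMSO and 44.1, 52.9 and 64.4% with Chelator (edgeR, adjusted p = 0.0499), and of the counts it held 9.08, 7.71 and 12.4% with DMSO and 23.9, 33.9 and 43.1% with Chelator. NDUFA5 as a whole was 0.16, adjusted p = 0.12 with the length offset, -0.51, adjusted p = 4.3e-08 without it, 0.21, adjusted p = 0.0064 over coding transcripts alone and 0.29, adjusted p = 0.013 with GC content and length trends taken out (DESeq2). The 3610-base form of ATP5F1E held a smaller share, at 89.1, 88.7 and 86.5% of the gene's TPM with DMSO and 77.8, 64.9 and 50.3% with Chelator (edgeR, adjusted p = 0.0042). A 343-base retained-intron transcript of ATP5F1D held a larger share, at 5.91, 0 and 0% of the gene's TPM with DMSO and 17.3, 31.2 and 29.6% with Chelator (edgeR, adjusted p = 0.0068). The counts of the ATP5F1E form itself were higher with Chelator, at 6637, 4458 and 4886 with DMSO and 9660.0, 12205 and 8835 with Chelator. Of the gene's counts, it held 95.6, 95.6 and 94.4% with DMSO and 89.5, 82.1 and 74.5% with Chelator, and the ATP5F1D form 1.03, 0 and 0% with DMSO and 4.07, 8.63 and 8.27% with Chelator. For these 5 genes the groups did not overlap in any of the shares given, of TPM or of counts. The other 10 were UQCRB, CYCS, NDUFC2, NDUFA9, SDHA, ATP5MC3, NDUFS1, UQCRC2, UQCRQ and ATP5PB, with largest changes from 7.59 to 15.9 percentage points. The iron-holding CYCS and NDUFS1 were among them, although neither passed the test in sum.

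The TPM-weighted mean transcript length was shorter in every Chelator library than in every DMSO library for 32 of the 77 members (24.7% of all genes tested for usage) and longer for 7 (9.98% of all genes), in the libraries whose fragments were also shorter. The part of fragment length in these shifts was not tested. Without Chelator replicate 2 the members called numbered 7 (5.18% of all genes tested) and without Chelator replicate 3 they numbered 9 (4.68%), so that calls fell over all genes as well. Without Chelator replicate 1, 16 members were called (8.57% of all genes). Leaving out DMSO replicate 1, 2 or 3 gave 11, 11 and 14 members (8.33, 7.94 and 9.05% of all genes). The usage call of NDUFA5 was lost without any single DMSO library or Chelator replicate 2 (adjusted p from 0.2 to 0.48), that of ATP5F1D without Chelator replicate 2 or 3 (adjusted p = 0.11 and 0.12) and that of ATP5F1E without Chelator replicate 2 (adjusted p = 0.0511, edgeR). With transcripts under 500 bases left out, neither UQCR11 nor ATP5F1D was called.

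**Figure D4:**
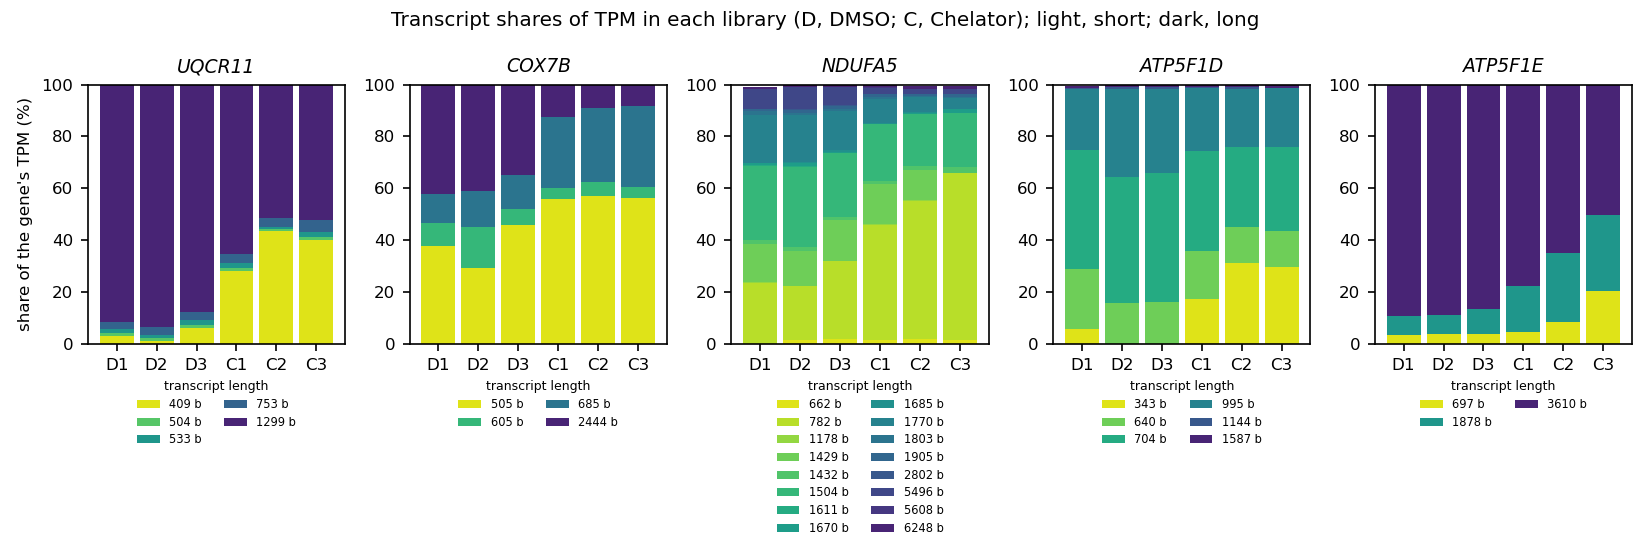
Share of each gene's TPM (y axis, %) held by each transcript that passed the count limit, stacked from the shortest (light) to the longest (dark), in the 3 DMSO (D) and 3 Chelator (C) libraries, for the 5 members with the largest changes. The long forms of UQCR11, COX7B and ATP5F1E take a smaller share in every Chelator library.

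More of the genes that build the complexes fell than rose. Of 52 assembly factors, 5 rose, 24 fell and 23 did not pass (19.5% of all genes rose and 18.3% fell; of well expressed genes of 1000 bases or more, 23.4% and 39.5%), with a median log2 fold change of -0.21. Complex IV had 12 of its 23 assembly factors lower and 4 higher. SCO2, a copper chaperone for complex IV, had the largest fall in this fit, from 10.1, 10.5 and 11.8 TPM with DMSO to 5.76, 4.85 and 3.77 TPM with Chelator (log2 fold change -1.21 ± 0.18 (SE), adjusted p = 3.7e-10, DESeq2). PET100, a factor for an early complex IV intermediate, had the largest rise in this fit, from 46.1, 32 and 42 TPM with DMSO to 77.4, 101 and 99.1 TPM with Chelator (log2 fold change 1.15 ± 0.16 (SE), adjusted p = 1.5e-11, DESeq2). COX10 (-0.35, adjusted p = 0.0063) and COX15 (-0.26, adjusted p = 0.0014), the enzymes that make heme a for complex IV, both fell. For complex I, 6 of 15 factors fell and 0 rose in DESeq2, 0 were higher at an unadjusted p under 0.05, and edgeR called 0 higher. Complexes II, III and V had 1 of 4, 3 of 6 and 2 of 4 factors lower. UQCC1, a complex III factor, rose (0.66, adjusted p = 3.6e-11).

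Among 12 regulators of mitochondrial biogenesis and mitochondrial DNA expression, 8 fell (18.3% of all genes, and 39.5% of well expressed genes of 1000 bases or more) and 0 rose in DESeq2 and in edgeR (0 higher at an unadjusted p under 0.05 in DESeq2), and PPARGC1A, near 0, received no adjusted p. TFB2M, a mitochondrial transcription factor, had the largest fall in this fit, from 53.7, 58 and 52 TPM with DMSO to 31.9, 35.5 and 36.3 TPM with Chelator (log2 fold change -0.69 ± 0.078 (SE), adjusted p = 2.6e-17, DESeq2). NRF1 itself (-0.48, adjusted p = 1.2e-06), GABPA, the ETS factor (-0.33, adjusted p = 5e-05), and TFAM, which packages mitochondrial DNA (-0.42, adjusted p = 4.4e-08), also fell, while YY1 (-0.073, adjusted p = 0.55) did not pass. The 13 subunits encoded by mitochondrial DNA had 4 lower (18.3% of all genes, and 38.2% of well expressed genes) and 0 higher in DESeq2 and in edgeR. In DESeq2, 0 were higher at an unadjusted p under 0.05, and the median was -0.28. MT-ND6, the complex I subunit on the light strand, fell from 4329, 4332 and 4729.8 TPM with DMSO to 2739, 2348 and 2322 TPM with Chelator (log2 fold change -0.89 ± 0.11 (SE), adjusted p = 6.6e-16, DESeq2), the largest fall of the 13 in this fit, although MT-ND5 fell more without the length offset and with GC content and length trends taken out. The count of 4 depended on DMSO replicate 2, which held 4.42% of its counts in mitochondrial genes against 6.65% and 7.06% in the other DMSO libraries, and without it 11 of the 13 were lower (18.8% of all genes). Without DMSO replicate 1, DMSO replicate 3, Chelator replicate 2 or Chelator replicate 3, 2 were lower (17.4, 16.7, 16.4 and 17% of all genes).

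**Figure D5:**
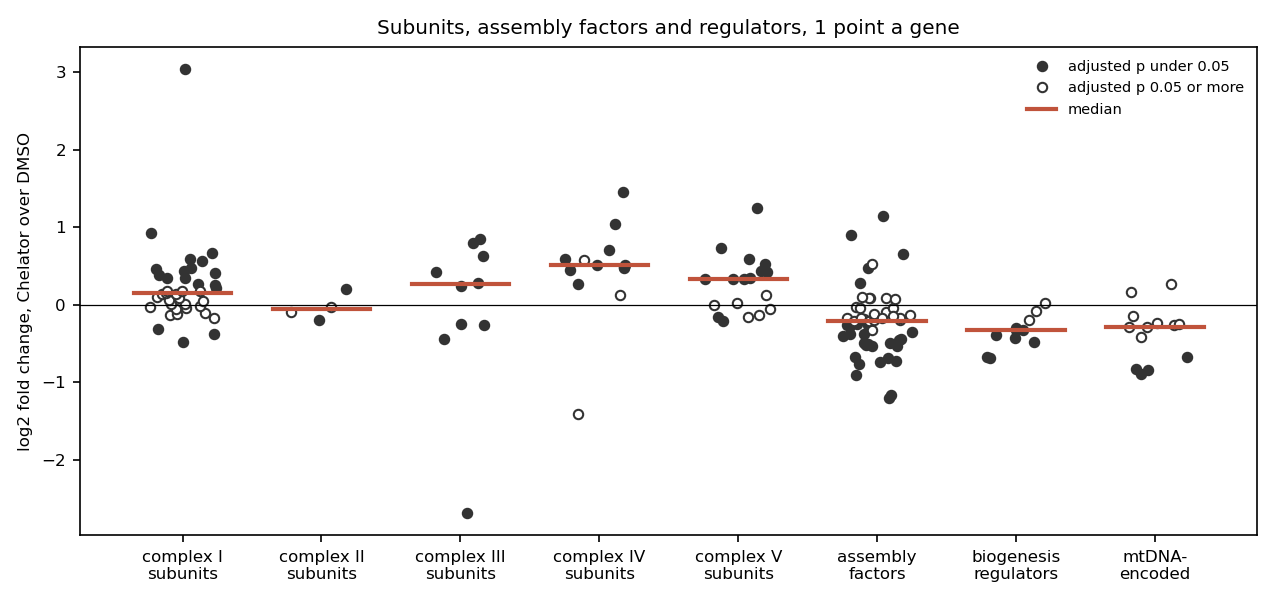
Log2 fold change of Chelator over DMSO (y axis) for nuclear-encoded subunits by complex, assembly factors, biogenesis regulators and mitochondrially encoded subunits, 1 point per gene. Filled points had an adjusted p under 0.05 and red lines are medians, which run from 0.51 for complex IV subunits to -0.33 for the regulators.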

How the data were processed

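Polyadenylated RNA of 6 K562 samples was read on an Illumina instrument from both ends. The authors quantified reads with salmon 1.10.2, and the deposited files hold, per transcript, estimated counts, TPM, length and effective length. The transcript annotation the authors used, the strandedness and any bias correction are not given in the sources used here, so reads of overlapping antisense genes may not be told apart. The deposited expected counts are not normalized, and the deposited TPM values were scaled by the authors for effective length and library size. The submitters' notes name genome build hg38.

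Transcripts were matched to GENCODE 44 (251612 of 252045) and summed to 62252 genes, and the sums were rounded. Genes with more than 10 counts in all were fitted with DESeq2 1.42.0 (Wald test, design of group, median-ratio size factors, average effective transcript length as offset). A call is an adjusted p under 0.05, and, where stated, an absolute log2 fold change above 1. Transcript usage was tested with edgeR 4.0.16 (diffSpliceDGE) on transcripts with at least 10 counts in 3 libraries. Limma 3.58.1 was used for alternatives on log2(TPM + 0.5). Alternatives were edgeR's quasi-likelihood test, TMM size factors, no length offset, other count filters, centring on the mean, removal of GC content and length trends, coding transcripts alone, limma, a replicate block, and leaving out each library. All p-values measure the spread between 3 libraries per group. Intervals and floors cover counting error only. Any 2 libraries of a group differed by more than sampling noise, with a chi-square of at least 6.57 per gene. The steps were tested on simulated data.

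Members and gene lists were chosen with earlier results of these data known. Named genes are the iron-holding members, SDHA, ATP5IF1, members past 2-fold, the 2 largest rises and falls of complexes I, III, IV and V, isoform pairs, the highest and lowest DMSO level of each complex, 5 members by transcript usage, and the largest rise and fall of the other lists. Members described beside these were chosen after their values were seen. A further blood cell marker is not reported here. Promoters are RefSeq's (GRCh38.p14), and all coordinates are 1-based.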

Additional observations from a re-analysis of the deposited data

How the results depend on the processing

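Centred on the mean, 20 members were higher and 21 lower, 0 and 7 of those that hold iron, and 3 assembly factors were higher, and the medians of complexes I to V were -0.065, -0.27, 0.051, 0.30 and 0.11. With GC content and length trends removed, 24 members were lower, 0 iron-holding members were higher and 7 lower, 2 mitochondrially encoded genes were lower, and the medians were -0.0069, -0.17, 0.10, 0.30 and 0.20. Without the length offset, 3 members passed 2-fold and 2 mitochondrially encoded genes were lower. Over protein-coding transcripts alone the medians of complexes III and V were 0.13 and 0.18. Limma on log2(TPM + 0.5) called 5 members, 1 iron-holding member and 2 mitochondrially encoded genes lower. Without their most abundant member, the summed TPM ratios of complexes II and III were 1.04 and 1.21. Leaving out 1 library gave 6 to 15 members lower, 2 to 11 mitochondrially encoded genes lower, 7 to 16 members called for transcript usage, and medians of complex V from 0.19 to 0.40. DMSO replicate 3 (6) and DMSO replicate 2 (15) set the range of members lower. Among members with an adjusted p under 0.05 (DESeq2) with or without the change of setting, directions turned for ATP5PB (-0.19), NDUFA5 (-0.51), NDUFB2 (0.29) and UQCRHL (1.16) without the length offset, for ATP5PB (-0.98) over protein-coding transcripts alone, for SDHA (-0.011) when centred on the mean, and for ATP5F1D (-0.14), COX8A (-0.013), NDUFA11 (-0.28), NDUFA3 (-0.0091), NDUFB7 (-0.44), NDUFS7 (-0.16) and NDUFV1 (-0.40) with GC content and length trends removed, and for none under the other settings. Members past the test in neither fit, such as CYCS and COX5A, also turned in some. The cause of these shifts was not tested. Replicate numbers are shared by the groups. Same-numbered libraries deviated together only weakly (r = -0.0737, 0.134 and 0.106 over 13492 genes), and differently numbered ones gave r from -0.164 to 0.0771. With 3 libraries per group these values cannot tell whether the numbers pair the samples. With the replicate block, 40 members were higher, 8 lower and 12 called for transcript usage (923 of all 11938 genes tested for usage). Of the summary values under all alternatives, 272 kept within their spread or within 1.5 times their count and 37 did not. For members with few counts, such as UQCRHL and COX7B2, depth limits the precision.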

Other observations

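NDUFAB1, the mitochondrial acyl carrier protein that is also a complex I subunit, falls outside the naming rule. It measured 219, 231 and 215 TPM with DMSO and 181, 196 and 182 TPM with Chelator (log2 fold change -0.28 ± 0.075 (SE), adjusted p = 0.00084, DESeq2), lower in every Chelator library. The readthrough gene ATP5MF-PTCD1, left out of the members and sharing sequence with ATP5MF, measured 13.1, 13.4 and 13.2 TPM with DMSO and 7.65, 6.98 and 8.55 TPM with Chelator (log2 fold change -0.81 ± 0.11 (SE), adjusted p = 1e-11, DESeq2), while ATP5MF alone was higher. These genes were chosen after their values were seen.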
